A study of Mus musculus with 12 samples.

Results

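Interleukin 10 (IL-10) was added together with lipopolysaccharide (LPS) to macrophages that lack the p50 subunit of NF-kB, and its effect was taken as LPS with IL-10 minus LPS alone. Both groups were p50-/-IL10-/- cells, so every sample compared carried knockouts of Nfkb1, which codes for p50 and its precursor p105, and of Il10. The 4 samples, among 12 in the series, were 2 that received LPS at 1 ng/ml together with IL-10 at 0.3 ng/ml and 2 that received only LPS, at the same dose. They were chosen by their labels, not by measured values, and the effect is described over 12393 genes. IL10-/- cells, which keep p50 and also lack Il10, had the same treatments and serve for comparison, as do 2 unstimulated samples of each genotype. The cells were grown from mouse bone marrow (strain given as 129-SvEv-Tac) for 5 days in medium with 30% L-cell conditioned medium and 10% serum. RNA was taken at 4 h and hybridised to 1 Affymetrix array per sample. The labels call the 2 arrays of a group biological replicates without naming animals or cultures, so the p-values reflect only how far these samples spread, which may be technical. Loss of p50 and of p105 cannot be told apart here, and transcripts of Nfkb1 were not analysed here, so this genotype rests on the labels.

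IL-10 signals through a receptor of an Il10ra and an Il10rb chain and the kinases Jak1 and Tyk2, which activate the transcription factor STAT3. In macrophages the STAT3 response holds down many genes that LPS induces, and Socs3, a feedback inhibitor, is one of its best known targets. p50 has no transactivation domain of its own. It acts with partners such as Rela and Rel, or as a homodimer that can repress genes and can be joined by the IkB-like protein Bcl3.

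Adding IL-10 to LPS lowered the cytokine genes Il6 and Il12b and raised the metallothionein Mt2, the zinc importer Slc39a14 and the interleukin 4 receptor chain Il4ra. Among all genes, 458 were higher and 356 lower with IL-10 (limma, adjusted p under 0.05), together 814 genes, or 6.57% of those tested (3.70% higher and 2.87% lower). A change of at least 2-fold was reached by 57 of the higher and 52 of the lower genes. The median log2 difference of all genes was 0.05, and with each array centred on its median over genes 277 genes were higher and 520 lower, so which direction has more genes turns with the scaling. Of the called genes, 194 kept their call in all 4 fits that left out 1 of the compared arrays. The number called was 270 without LPS array 1 and 479 without LPS array 2, and 327 and 272 without arrays 1 and 2 of LPS with IL-10. In 56.9% of all genes the 2 arrays of one group lay wholly above or below those of the other, so separation of the arrays alone says little here. Where a group mean lay under 5.6 log2, the highest lower quartile of the 12 arrays over all probe sets, the size of a change is uncertain.

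**Figure D1:**
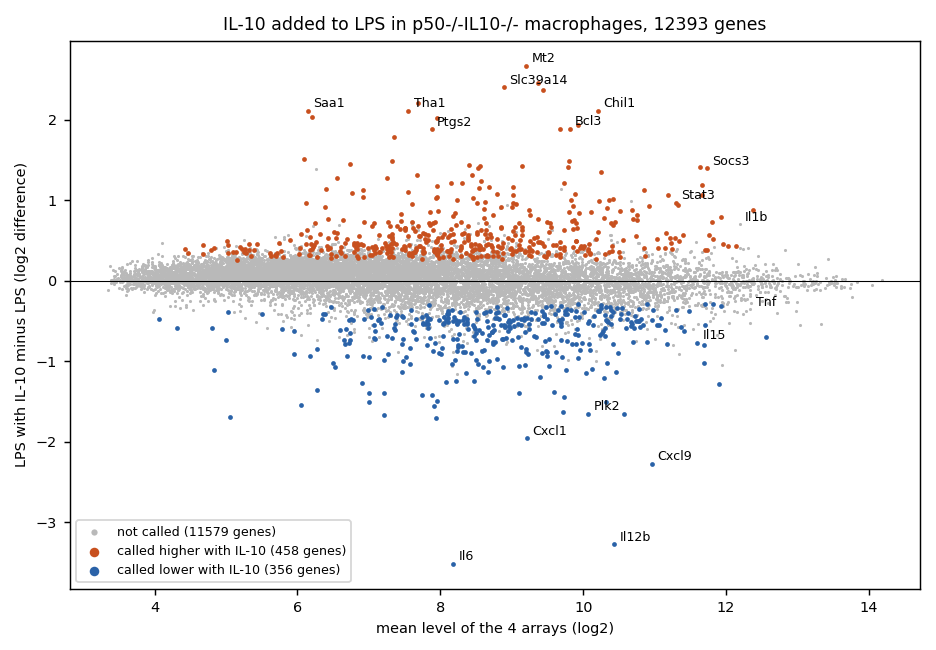
Log2 difference between LPS with IL-10 and LPS in p50-/-IL10-/- macrophages (vertical axis) against the mean log2 level of the 4 arrays (horizontal axis), one point per gene. Orange points are the 458 genes called higher, blue points the 356 called lower, and grey points the genes not called. Il6 and Il12b lie farthest below 0 and Mt2 farthest above it.

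The arrays carried the markers of macrophages. Lyz2 read 14.05 and 13.98 log2 with LPS and IL-10, against 14.03 and 14.11 with LPS, and Csf1r, the receptor for macrophage growth factor, read 13.43 and 13.51, against 13.48 and 13.45. Replicate arrays correlated at 0.992 to 0.997 over genes in the 6 groups. Of 16 measured macrophage markers 4 were higher (Cebpa, Cebpb, Msr1 and Spi1) and 1 lower, Mertk (25% and 6.25%, where 3.70% and 2.87% of all genes were). Of 13 measured neutrophil markers 3 were called lower, or 23.1% where 2.87% of all genes were (Chil3, S100a8 and S100a9, the largest difference being -0.54 log2), and the list mean was 7.79 and 7.72 with IL-10, against 7.89 and 7.92 without it. These calls numbered 0 in 3 of the 4 fits without 1 array, and 1 without array 1 of LPS with IL-10. The granule enzymes Mpo and Elane, which mark neutrophil precursors, read 6.30 to 6.72 log2 with IL-10 and 6.11 to 6.57 without it. In the lists of dendritic, B, T and NK, erythroid, mast and stromal markers, 1 measured marker was called, the dim Zbtb46 (0.31 log2). Any part of these cells in the changes below was not tested, and fewer cells of a type cannot be told apart from less RNA per cell.

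The largest increases were led by Mt2, Tma16, Slc39a14 and Il4ra. Mt2 (gene ID 17750), a metallothionein that binds zinc and copper, read 10.64 and 10.42 log2 with IL-10, against 8.11 and 7.61 without it. The IL-10 arrays were higher by 2.67 ± 0.41 log2 (SE, n = 2 arrays per group, adjusted p 0.00381). Here and for every difference below, n is the same and the SE comes from the fit over all 12 arrays. It is not the spread of the compared arrays alone. Tma16 (gene ID 66282), a ribosome assembly factor, read 10.56 and 10.61 log2, against 8.26 and 8.01 with LPS alone (2.45 ± 0.19). Its other probe set rose by less (0.92 ± 0.12). Il4ra (gene ID 16190), the signalling chain shared by the interleukin 4 and 13 receptors, read 10.51 and 10.73, against 8.06 and 8.46 (2.36 ± 0.13). For all of these the LPS-only arrays lay well below the IL-10 arrays. The acute phase genes Saa1 (2.11 ± 0.10) and Ambp (2.03 ± 0.10) rose above dim levels, and Saa1 probes can take signal from related serum amyloid genes. Chil1, a secreted chitinase-like protein, rose by 2.11 ± 0.22, the lymphocyte receptor gene Slamf1 by 2.02 ± 0.15, the threonine aldolase Tha1 by 2.11 ± 0.12 and the copper oxidase Cp by 1.89 ± 0.31. Of the 15 largest increases, 14 kept their call in all 4 fits without 1 array. Cp lost it without array 2 of LPS with IL-10 (adjusted p 0.062), and 3 of its 6 other probe sets were not called (0.06 to 1.33).

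The largest decreases were led by Il6 and Il12b, and several of the others varied more between arrays. Cxcl9, a chemokine of the interferon-gamma response, read 9.43 and 10.21 log2 with IL-10, against 12.33 and 11.86 without it (-2.27 ± 0.44), and lost its call in 2 of 4 fits (highest adjusted p 0.112, without LPS array 1). Rgs1, an inhibitor of G protein signalling, read 9.86 and 9.61, against 11.50 and 11.29 (-1.66 ± 0.21). Plk2, a stress-responsive kinase, read 9.25 and 9.24, against 10.85 and 10.95 (-1.65 ± 0.13). Both kept their call with each array left out. The chaperone Hspa1b fell by 1.56 ± 0.25, with probes that can also take signal from its near-identical copy. The small GTPase Gem fell by 1.55 ± 0.23 to a dim level. Mmd fell by 1.503 ± 0.11 and the RNA gene A630072M18Rik fell by 1.502 ± 0.19. The call of the homeobox gene Lhx2 (-1.67 ± 0.42) held in 1 of 4 fits, that of BC023105 (-1.70 ± 0.35) in 2 and those of the germ cell helicase Ddx4 (-1.69 ± 0.29) and of Vcam1 in 3. Their highest adjusted p was 0.251 and 0.142 without LPS array 1 for Lhx2 and BC023105, and 0.0631 and 0.0522 without array 1 of LPS with IL-10 for Ddx4 and Vcam1.

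**Figure D2:**
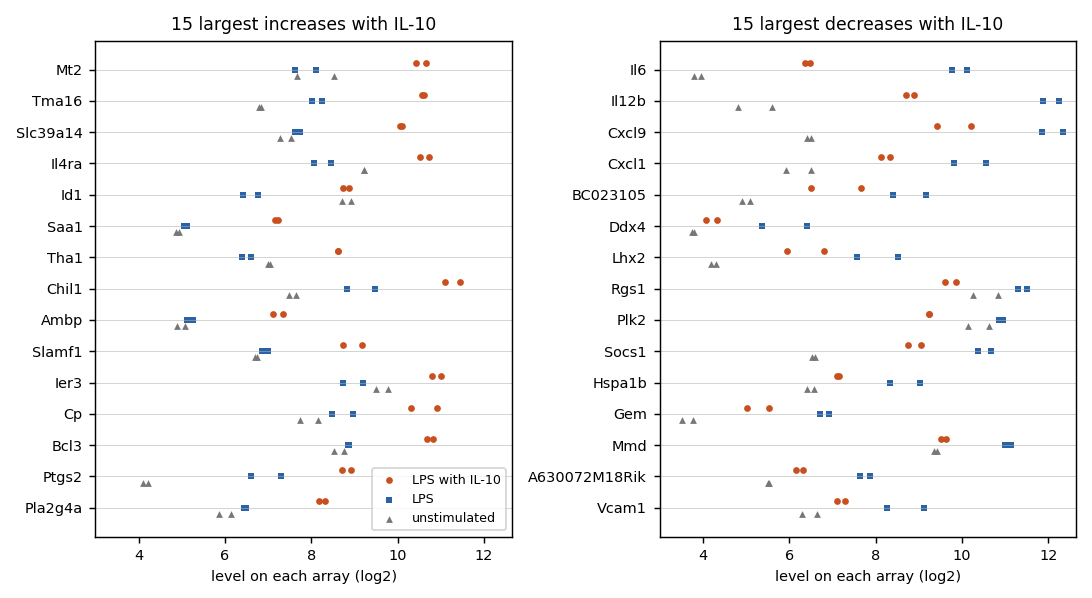
Log2 level on each array of the 15 genes with the largest increases and the 15 with the largest decreases with IL-10, in p50-/-IL10-/- cells given LPS with IL-10 (orange circles), LPS (blue squares) or nothing (grey triangles), 2 arrays each. The orange and blue points of each gene do not overlap, which the choice of genes required, and Il6 with IL-10 (6.38 and 6.48) stays above its unstimulated level (3.96 and 3.80).

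In the IL-10 receptor pathway the clearest increases were those of Socs3, Ptpn1 and Stat3, while Il10ra was lower by 1 of its 3 probe sets. Socs3 (gene ID 12702), which blocks JAK kinases at cytokine receptors, read 12.40 and 12.45 log2 with IL-10, 11.06 and 11.01 with LPS and 7.08 and 7.25 unstimulated. IL-10 raised it by 1.39 ± 0.08 log2 (adjusted p 1.25e-05). Of its other probe sets, which share probes, one rose by 0.64 ± 0.16 and one was not called (0.46 ± 0.16). Stat3 (gene ID 20848) read 11.81 and 11.74, against 10.94 and 10.69 without IL-10 (0.96 ± 0.10, adjusted p 0.000334). Ptpn1, a phosphatase of JAK kinases, rose by 1.06 ± 0.12. The ligand-binding chain Il10ra (gene ID 16154) read 8.70 and 8.84, against 9.77 and 9.59, and fell by 0.91 ± 0.12 (adjusted p 0.00158). Its 2 other, dimmer probe sets were not called and had opposite signs (-0.24 ± 0.12 and 0.18 ± 0.09), and the mean over its probe sets was lower by a smaller amount (-0.32, adjusted p 0.0389). Its partner Il10rb read 11.25 and 11.28, against 11.22 and 11.14 (0.09 ± 0.09), and was not called. Jak1 (0.35 ± 0.09, adjusted p 0.05004) and Tyk2 (-0.31 ± 0.11) were not called. A further probe set of Jak1 was called higher (0.41 ± 0.08, adjusted p 0.0146), and another, dimmer probe set was not called (-0.08 ± 0.31). Socs1, an inhibitor of interferon signalling, read 8.75 and 9.05, against 10.68 and 10.37 (-1.62 ± 0.38), but its call ended in each of the 4 fits without 1 array (highest adjusted p 0.174, without LPS array 1). In all, 4 of 21 measured members were higher and 4 lower, where 3.70% and 2.87% of all genes were. Calls of Socs3, Stat3, Ptpn1 and Il10ra were kept in all 4 fits. That of Cish held in 1 and those of Stat5a and Ptpn2 in 0 (highest adjusted p 0.108 and 0.15 for Cish and Stat5a without array 2 of LPS with IL-10, and 0.267 for Ptpn2 without LPS array 1). The signal of the Il10 probe set, whose place relative to the deletion was not given, was 7.98 and 8.03, against 9.11 and 8.86 (-0.98 ± 0.16).

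The 250 bases before the transcription start of Socs3 are shown because they hold a sequence of the kind STAT factors bind, in capitals, at positions -154 to -146 from the start (RefSeq, GRCm38.p6, chr11:117969367-117969616, minus strand).
Socs3: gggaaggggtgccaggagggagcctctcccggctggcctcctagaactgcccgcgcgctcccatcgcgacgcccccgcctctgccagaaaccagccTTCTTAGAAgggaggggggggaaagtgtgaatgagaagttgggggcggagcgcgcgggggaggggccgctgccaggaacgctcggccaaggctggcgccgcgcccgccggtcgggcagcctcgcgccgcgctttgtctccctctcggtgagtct
The letters searched were TTCNNNGAA, which reads the same on both strands. They occurred in 7.02% of all 32851 promoter windows of this length and in 6.00% of those of measured genes. For windows of genes called higher and lower the shares were 6.50% and 5.37%. For genes called at least 2-fold higher and lower they were 6.06% and 5.56%.

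Of 31 measured genes known as mediators of IL-10 action in macrophages, 15 were called higher in p50-/-IL10-/- cells (48.4%, against 3.70% of all genes), 1 lower (3.23%, against 2.87%) and 15 not called. The list had a median log2 difference of 0.53 where that of all genes was 0.05, and 11 were higher in each of the 4 fits without 1 array. The list was drawn up with earlier results of these data known. Bcl3 (gene ID 12051), the IkB-like partner of p50 homodimers, read 10.81 and 10.69 log2 with IL-10, against 8.86 and 8.88 without it (1.88 ± 0.15, adjusted p 8.24e-05). Il1rn (gene ID 16181), the interleukin 1 receptor antagonist, read 11.61 and 11.81, against 10.75 and 10.55 (1.06 ± 0.16). Both were higher on each IL-10 array than on each LPS array. The survival gene Ier3 rose by 1.94 ± 0.15, the orphan receptor Gpr35 by 1.504 ± 0.20 from a dim level with LPS, and the protease inhibitor Timp1 by 1.48 ± 0.19. The inhibitory antibody receptor Fcgr2b rose by 0.88 ± 0.12. Cebpb and Cebpd, C/EBP transcription factors of myeloid activation, rose by 0.79 ± 0.12 and 0.92 ± 0.12. Ddit4, an inhibitor of mTORC1, differed by 1.28 ± 0.28, a call that ended in each of the 4 fits (highest adjusted p 0.156, without LPS array 1). Arg1 (0.08), Slpi (0.14), Nfil3 (0.25) and Hmox1 (0.57) were not called. The member called lower was Plaur, the urokinase receptor (-0.53 ± 0.13), which held its call in 0 of 4 fits (highest adjusted p 0.209, without LPS array 1).

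The cytokine genes of activated macrophages split, with 8 of 26 measured members lower (30.8%, against 2.87% of all genes), 1 higher (3.85%, against 3.70%) and 17 not called. Il6 (gene ID 16193) read 6.38 and 6.48 log2 with IL-10, 10.11 and 9.76 with LPS and 3.96 and 3.80 unstimulated. It fell by 3.51 ± 0.33 (adjusted p 0.000263). Il12b (gene ID 16160), the p40 subunit of interleukins 12 and 23, read 8.72 and 8.88 with IL-10, 12.25 and 11.88 with LPS and 4.81 and 5.59 unstimulated, and fell by 3.27 ± 0.21. Both stayed above their unstimulated levels with IL-10. Csf1, macrophage growth factor, read 8.95 and 8.84, against 10.42 and 10.13 (-1.38 ± 0.13). Its 3 other probe sets differed by -1.21, -0.53 and -0.20, the last not called. The type I interferon gene Ifnb1 read 6.40 and 6.62, against 8.14 and 7.68 (-1.40 ± 0.18). Il1a read 8.74 and 8.85, against 9.93 and 10.04 (-1.19 ± 0.19). These calls were kept in all 4 fits without 1 array, whereas that of the death ligand Tnfsf10 (-1.42 ± 0.32) held in 1 (highest adjusted p 0.196, without LPS array 1). Tnf (gene ID 21926) read 12.15 and 12.17 with IL-10, against 12.50 and 12.54, a difference of -0.36 ± 0.11 that was not called (adjusted p 0.0856). Il1b (gene ID 16176) read 12.38 and 12.70, against 12.03 and 11.65 (0.70 ± 0.26, adjusted p 0.136). The arrays did not overlap for either gene, as for 56.9% of all genes. The member called higher was Lta (0.45 ± 0.10), which held its call in 0 of 4 fits (adjusted p up to 0.161 when array 1 of LPS with IL-10 was left out), while 6 to 8 members were lower in each of them.

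Attractants of neutrophils (Cxcl1, Cxcl2) and monocytes (Ccl2) were lower, and the chemokines Ccl3, Ccl4 and Ccl5 were not called. Of 26 measured members, 5 were lower (19.2%, where 2.87% of all genes were) and 0 higher (limma; 3 to 5 and 0 in the fits without 1 array). At an unadjusted p under 0.05 the members lower numbered 5 and those higher 2, where 8.50% and 14.9% of all genes were. Cxcl1 (gene ID 14825) read 8.34 and 8.14 log2 with IL-10, against 9.83 and 10.56 without it (-1.96 ± 0.26, adjusted p 0.00162). Cxcl2 read 11.24 and 11.12, against 12.04 and 12.37 (-1.02 ± 0.11). Ccl2, the main monocyte attractant, read 9.85 and 9.95, against 11.19 and 10.87 (-1.14 ± 0.17). The IL-10 arrays of these genes lay below the LPS arrays and above the unstimulated ones, at 5.92 to 8.24. Ccl4 read 12.06 and 12.26, against 12.30 and 12.12 (-0.05 ± 0.28), and Ccl5 read 13.16 and 13.23, against 13.26 and 13.20 (-0.04 ± 0.63). The groups overlapped for both. Ccl8, another monocyte attractant, read 9.99 and 10.98, against 9.53 and 8.64, a difference of 1.40 ± 0.42 that was not called (adjusted p 0.0772).

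The promoters of Il6 and Cxcl1 are shown because each holds the NF-kB consensus, in capitals, at positions -44 to -35 of Il6 and as an overlapping pair between -71 and -61 of Cxcl1 (RefSeq, GRCm38.p6, chr5:30012864-30013113 and chr5:90890995-90891244, both plus strand).
Il6: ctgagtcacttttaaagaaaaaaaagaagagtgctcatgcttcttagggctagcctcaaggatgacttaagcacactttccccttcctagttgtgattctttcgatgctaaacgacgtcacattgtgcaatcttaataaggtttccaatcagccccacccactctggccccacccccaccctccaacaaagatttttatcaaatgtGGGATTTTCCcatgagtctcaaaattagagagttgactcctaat
Cxcl1: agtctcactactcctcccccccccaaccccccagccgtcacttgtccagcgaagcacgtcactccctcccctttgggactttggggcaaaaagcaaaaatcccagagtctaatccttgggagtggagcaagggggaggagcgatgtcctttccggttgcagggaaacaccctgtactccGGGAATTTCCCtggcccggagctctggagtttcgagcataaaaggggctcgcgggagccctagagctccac
The NF-kB consensus, searched on both strands, occurred in 3.90% of all promoter windows and in 4.57% of those of measured genes. It occurred in 7.16% of the windows of all genes called lower and in 4.72% of those of all genes called higher. By size it occurred in 7 of 54 windows (13.0%) of genes called at least 2-fold lower and in 3 of 66 (4.55%) of genes called at least 2-fold higher. This is a match of letters, counted with no test, and genes can have several windows.

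NF-kB subunits and regulators moved in both directions. Rel (gene ID 19696), the c-Rel subunit, read 7.43 and 7.48 log2 with IL-10, against 8.93 and 8.50 without it (-1.26 ± 0.17, adjusted p 0.00167). Rela read 11.73 and 11.73, against 11.51 and 11.51 (0.22 ± 0.07, adjusted p 0.113), Relb read 11.12 and 11.13, against 10.74 and 10.84 (0.34 ± 0.10), and Nfkb2 read 10.15 and 10.22, against 10.02 and 10.12 (0.11 ± 0.09). None of these 3 subunits was called with limma. At an unadjusted p under 0.05, 2 of them were higher, where 14.9% of all genes were. Of 26 measured members, 4 were higher and 4 lower, where 3.70% and 2.87% of all genes were. The adaptor Traf1 read 8.66 and 8.77, against 9.60 and 9.49 (-0.83 ± 0.12). Tax1bp1, an adaptor of the A20 deubiquitinase, read 10.98 and 11.17, against 10.35 and 10.27 (0.77 ± 0.08). Bcl3, Rel, Traf1 and Tax1bp1 kept their calls in all 4 fits. The A20-binding inhibitors Tnip1 (0.46 ± 0.09) and Tnip2 (0.48 ± 0.09) kept theirs in 1 and 2, and Birc2 (-0.45 ± 0.10) and Nfkbie (-0.52 ± 0.13) in 1 and 0. Their highest adjusted p was 0.138, 0.0744, 0.192 and 0.19, each without LPS array 1. The inhibitors Nfkbia (-0.04) and Tnfaip3 (-0.27) were not called.

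Interferon-stimulated genes had lower values with IL-10 in most cases, yet none was called. The list mean over 56 measured genes was 11.29 and 11.46 log2 with IL-10, 11.79 and 11.60 with LPS and 9.95 and 9.71 unstimulated. The IL-10 arrays lay below the LPS arrays and far above the unstimulated ones. Differences were negative in 52 of the 56, with a median of -0.24 where that of all genes was 0.05. By limma 0 were lower and 0 higher, and at an unadjusted p under 0.05 there were 5 lower and 0 higher, where 8.50% and 14.9% of all genes were. The 2 arrays of each group were separate in 31, all lower, where 56.9% of all genes were separate in either direction. Other fits called 10 lower on the 4 compared arrays only, where 310 of all 12393 genes were. They called 8 with a replicate block within genotypes (448 of all genes) and 2 with arrays centred on their medians (520 of all genes). In the fit over all 12 arrays the error of these genes includes the IL10-/- arrays, whose list means were farther apart, at 9.92 and 8.92 with LPS and IL-10, and 11.09 and 10.39 with LPS. In IL10-/- cells 21 of the 56 were called lower, where 2.82% of all genes were. Their median there was -1.16, where that of all genes was 0.01. Mx2, an antiviral GTPase, read 10.56 and 10.72 with IL-10, against 11.35 and 11.37 without it in p50-/-IL10-/- cells (-0.72 ± 0.23, adjusted p 0.0962). The difference of its IL-10 effect between the genotypes was 2.01 ± 0.33 (adjusted p 0.0534).

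Of 28 measured genes of zinc, copper and iron handling 5 were higher (17.9%, where 3.70% of all genes were) and 0 lower (5 and 1 with arrays centred, 3 to 5 higher in the fits without 1 array). Slc39a14 (gene ID 213053), which imports zinc and non-transferrin iron, read 10.11 and 10.06 log2 with IL-10, against 7.63 and 7.75 without it (2.40 ± 0.14, adjusted p 9.54e-06). A further probe set of the gene was not called (0.32 ± 0.17). Mt1 (gene ID 17748) read 10.94 and 10.90, against 9.43 and 9.71 (1.35 ± 0.25), a call held in 1 of 4 fits (highest adjusted p 0.099, without LPS array 1). Its other probe set was not called (0.13 ± 0.09). The divalent metal transporter Slc11a2 read 9.15 and 8.97, against 8.07 and 8.27 (0.89 ± 0.11). The iron exporter Slc40a1 (-0.48), the zinc exporter Slc30a1 (-0.38), the ferritin chain Fth1 (0.01) and Mtf1, the zinc sensor that activates metallothioneins (0.10), were not called.

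The promoter of Mt2 is shown for its 5 matches to a loose form of the metal response element core, in capitals, between positions -223 and -44 (RefSeq, GRCm38.p6, chr8:94172368-94172617, plus strand).
Mt2: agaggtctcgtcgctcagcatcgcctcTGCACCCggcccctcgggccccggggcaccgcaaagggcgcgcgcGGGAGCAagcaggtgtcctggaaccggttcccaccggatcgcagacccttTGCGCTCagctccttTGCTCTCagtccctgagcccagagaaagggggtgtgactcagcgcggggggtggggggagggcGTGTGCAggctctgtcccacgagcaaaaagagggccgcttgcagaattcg
The letters were TGCNCNC on either strand, looser than the core itself, so a marked stretch need not be a core. These letters occurred in 44.4% of all promoter windows and in 51.3% of those of measured genes. They occurred in 53.9% of windows of genes called higher and in 50.4% of those of genes called lower, so a single match marks nothing particular.

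Several genes that make or sense prostaglandin E2 were higher with IL-10, and they made up the 5 of 25 measured lipid mediator genes called higher (20%, against 3.70% of all genes), with 0 lower. Pla2g4a (gene ID 18783), the phospholipase that frees arachidonic acid, read 8.31 and 8.19 log2 with IL-10, against 6.50 and 6.44 without it (1.78 ± 0.11, adjusted p 2.02e-05). Ptgs2 (gene ID 19225), inducible cyclooxygenase, read 8.91 and 8.72, against 7.29 and 6.59 (1.88 ± 0.18), and its other probe set rose by 1.07 ± 0.23. Ptges, a prostaglandin E synthase, read 10.57 and 10.86, against 9.91 and 9.55 (0.99 ± 0.18). The receptors Ptger2 and Ptger4 differed by 1.13 ± 0.21 and 0.82 ± 0.18. Pla2g4a and Ptgs2 kept their calls in all 4 fits. Ptges and Ptger2 did so in 2 and Ptger4 in 0, so that 3 of the list were called in each fit. Their highest adjusted p was 0.0906 and 0.161 for Ptges and Ptger4 without array 2 of LPS with IL-10, and 0.0953 for Ptger2 without array 1 of it. The leukotriene genes Alox5ap (-0.14), Ltc4s (0.04) and Lta4h (-0.22) were not called.

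Of 24 measured genes of the BMP and SMAD pathway 4 were higher and 2 lower (16.7% and 8.33%, where 3.70% and 2.87% of all genes were). Id1 (gene ID 15901), an inhibitor of helix-loop-helix transcription factors, read 8.73 and 8.86 log2 with IL-10, 6.76 and 6.42 with LPS and 8.71 and 8.92 unstimulated. With IL-10 it was higher by 2.21 ± 0.25 (adjusted p 0.000709) and lay within the range of its unstimulated arrays. Id3 read 9.17 and 8.65, against 7.56 and 7.85 (1.21 ± 0.19). Smad6, an inhibitor of BMP signalling, read 8.98 and 8.999, against 7.97 and 8.09 (0.96 ± 0.09). These kept their calls in all 4 fits, Id3 with an adjusted p of up to 0.0492. Smad1 (0.47 ± 0.08) and the receptor Acvr1 (-0.73 ± 0.17) kept theirs in 2 and the dim Bmp2 (-0.48 ± 0.12) in 0, with a highest adjusted p of 0.073 without array 2 of LPS with IL-10, 0.207 without LPS array 1 and 0.196 without LPS array 2. The 2 other probe sets of Acvr1 were not called (-0.32 and 0.04), nor was the mean over its probe sets (-0.34, adjusted p 0.0897).

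Among 30 immediate early and AP-1 genes 5 were higher and 3 lower (16.7% and 10%, with 3.70% and 2.87% over all genes). Batf (gene ID 53314), an AP-1 partner of IRF factors, read 9.18 and 9.07 log2 with IL-10, against 7.78 and 7.59 without it (1.44 ± 0.12). It and Ier3 kept their calls in all 4 fits. Fos (1.10 ± 0.23), Klf4 (-0.81 ± 0.20) and Klf6 (-0.79 ± 0.19) kept theirs in none of them (highest adjusted p 0.13 for Fos without LPS array 1, and 0.206 and 0.183 for Klf4 and Klf6 without arrays 2 and 1 of LPS with IL-10), and the counts there were 2 or 3 higher and 0 or 1 lower. Of 23 genes for MAP kinase phosphatases, Sprouty proteins and mRNA decay factors, 5 were higher and 2 lower (21.7% and 8.70%, against the same shares of all genes). Dusp1, the phosphatase that ends p38 and JNK signals, read 9.19 and 9.05, against 8.12 and 8.15 (0.98 ± 0.12, kept in all 4 fits). Zfp36l2, which destabilises AU-rich mRNAs, read 10.86 and 10.85, against 9.92 and 9.80 (1.00 ± 0.13), while its 2 other probe sets were not called (both 0.18). Its relative Zfp36, tristetraprolin, differed by 0.53 ± 0.12 and Spry2 by -0.74 ± 0.16, in calls held in 0 and 1 of 4 fits (adjusted p up to 0.147 and 0.166, both when array 2 of LPS with IL-10 was left out). The other probe set of Spry2 was not called (0.08 ± 0.10).

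In the glycolysis and hypoxia list 5 of 29 measured genes were higher (17.2%, where 3.70% of all genes were) and 0 lower, with a median of 0.20. The count was 4 with arrays centred, and 2 without array 2 of LPS with IL-10. Pfkl, liver phosphofructokinase, read 9.64 and 9.71 log2 with IL-10, against 8.75 and 8.85 without it (0.88 ± 0.08). The glucose transporter Slc2a1 read 10.20 and 10.32, against 9.73 and 9.36 (0.71 ± 0.12, adjusted p 0.0608 without array 2 of LPS with IL-10), and the histone demethylase Kdm3a rose by 0.67 ± 0.09. Of 22 nitric oxide, arginine and itaconate genes 1 was higher and 2 lower (4.5% and 9.1%, where 3.70% and 2.87% of all genes were). Arg2, mitochondrial arginase, rose by 1.43 ± 0.17 (9.42 and 9.10, against 7.64 and 8.04), while Nos2 (0.34), Arg1 (0.08) and Acod1, which makes itaconate (-0.09), were not called. Sat1, which acetylates polyamines, fell by 0.55 ± 0.08, and the arginine transporter Slc7a2 differed by -0.72 ± 0.14 (held in 2 of 4 fits, with an adjusted p up to 0.12 when array 1 of LPS with IL-10 was left out).

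Of 37 measured receptors for cytokines, 8 were higher and 2 lower (21.6% and 5.41%, against 3.70% and 2.87% of all genes). Besides Il4ra, the granulocyte factor receptor Csf3r read 10.81 and 11.03 log2 with IL-10, against 9.98 and 9.85 without it (1.01 ± 0.12). Ltbr, the lymphotoxin receptor, read 9.83 and 9.92, against 9.29 and 9.14 (0.66 ± 0.09). Calls of these 3 and of Il10ra were kept in all 4 fits, and in those fits 4 or 5 receptors were higher and 1 or 2 lower. Among 39 pattern recognition, scavenger and chemoattractant receptors 5 were higher and 5 lower (12.8% each way). The chemokine receptor Cxcr4 read 10.79 and 10.19, against 8.90 and 9.27 (1.41 ± 0.19). The antibody receptor Fcgr3 rose by 0.73 ± 0.10 and the fungal lectin receptor Clec4n by 0.82 ± 0.11. These kept their calls in all 4 fits. Clec7a (-0.55 ± 0.10), Tlr7 (-0.59 ± 0.12) and the oxidised lipoprotein receptor Olr1 (-1.03 ± 0.25) held theirs in 1. Mertk, the receptor for apoptotic cells, was 8.75 and 9.28, against 10.17 and 9.74 (-0.94 ± 0.19, held in 2). Their highest adjusted p was 0.106, 0.136 and 0.144 for Clec7a, Tlr7 and Mertk without LPS array 1, and 0.237 for Olr1 without array 2 of LPS with IL-10. The LPS receptor Tlr4 (-0.10) and its partner Cd14 (0.07) were not called.

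In the lists for antigen presentation, ribosome assembly, the cell cycle and cholesterol 0 to 2 genes were called. Of 23 antigen presentation and co-stimulation genes, the adhesion molecule Vcam1 alone was called, as lower (4.35%, where 2.87% of all genes were). It read 7.12 and 7.30 log2 with IL-10, against 9.12 and 8.27 (-1.49 ± 0.24). H2-Aa (-0.08), H2-Ab1 (-0.06) and Cd40 (-0.03) were not called. Of 35 ribosome assembly genes, 2 were higher (5.71%, where 3.70% of all genes were), Tma16 and Heatr1 (0.48 ± 0.10, a call held in 0 of 4 fits, with an adjusted p up to 0.13 when array 2 of LPS with IL-10 was left out), with 0 lower. Of 33 cell cycle genes, 1 was higher (3.03%, where 3.70% of all genes were), with 0 lower. It was Ccnd3 (0.45 ± 0.11), whose call ended in most fits without 1 array. Of 25 apoptosis regulators, 3 were higher and 1 lower (12% and 4%, where 3.70% and 2.87% of all genes were), led by the survival gene Bcl2l1 (0.54 ± 0.10), and with arrays centred 1 was higher and 3 lower. The 3 lost their calls in each of the 4 fits. Of 25 cholesterol genes limma called 0 higher and 0 lower, with a median of 0.15, and at an unadjusted p under 0.05 there were 4 higher and 0 lower, or 16% higher where 14.9% of all genes were.

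**Figure D3:**
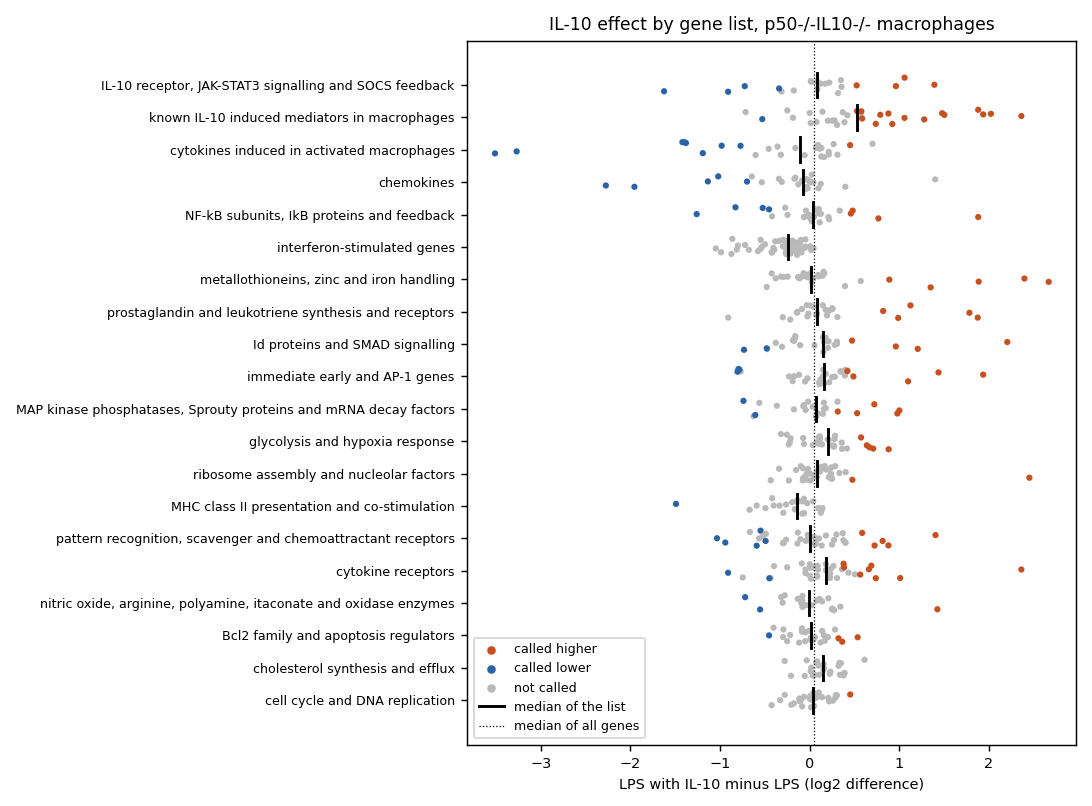
Log2 difference between LPS with IL-10 and LPS in p50-/-IL10-/- cells for each measured member (points) of the 20 gene lists other than cell type markers. Black bars are list medians and the dotted line is the median of all genes (0.05). The list of known IL-10 mediators has its median at 0.53 and that of interferon-stimulated genes at -0.24, and most lists hold members on both sides.

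The IL-10 effect was then set against the LPS response, taken from IL10-/- cells so that no array was shared, where 7.76% of all genes were called higher and 17.1% lower with LPS than unstimulated. Of 328 genes raised there at least 2-fold by LPS, IL-10 lowered 44 (13.4%) and raised 22 (6.71%) in p50-/-IL10-/- cells, with a median log2 difference of -0.23. Of 242 genes lowered there at least 2-fold, 27 (11.2%) were higher with IL-10 and 23 (9.50%) lower, with a median of -0.01. Among the other 11823 genes 3.46% were higher and 2.44% lower, with a median of 0.06. The LPS-raised genes lowered by IL-10 were led by Il6, Il12b, Cxcl9 and Cxcl1. Those raised further by IL-10 included Tma16, Slc39a14, Chil1 and the gap junction gene Gja1. Gja1 read 10.42 and 10.65 with IL-10, 9.24 and 8.87 with LPS and 5.63 and 5.40 unstimulated (1.48 ± 0.21). By their other probe sets Tma16 and Slc39a14 were not called as changed by LPS in IL10-/- cells (-0.08 ± 0.12 and 0.31 ± 0.17).

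Some genes that LPS lowers lay nearer to their unstimulated level with IL-10, and others farther from it. Cebpa (gene ID 12606), a transcription factor of myeloid differentiation, read 10.10 and 9.62 log2 with IL-10, 8.22 and 8.65 with LPS and 12.07 and 12.24 unstimulated. IL-10 raised it by 1.42 ± 0.18 (adjusted p 0.00125). Nek6, a mitotic kinase, read 9.22 and 9.21 with IL-10, 7.62 and 8.03 with LPS and 8.97 and 9.22 unstimulated (1.39 ± 0.15). Rab3il1 and Rassf2 rose by 1.21 ± 0.12 and 1.17 ± 0.10. Mef2c (gene ID 17260), a transcription factor of the MADS family, read 7.87 and 7.70 with IL-10, 8.88 and 8.99 with LPS and 9.75 and 9.55 unstimulated. IL-10 lowered it by 1.15 ± 0.15. Cd28 fell by 0.93 ± 0.13, the lipid transfer gene Pitpnc1 by 0.89 ± 0.13 and the palmitoyltransferase Zdhhc14 by 0.75 ± 0.09. These calls were kept in all 4 fits without 1 array. Some other probe sets of these genes were not called, 1 of 2 for Nek6 (0.37), 3 of 4 for Rab3il1 (0.07 to 0.20), 4 of 8 for Pitpnc1 (-0.59 to -0.01) and 2 of 5 for Zdhhc14 (-0.21 and 0.09).

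**Figure D4:**
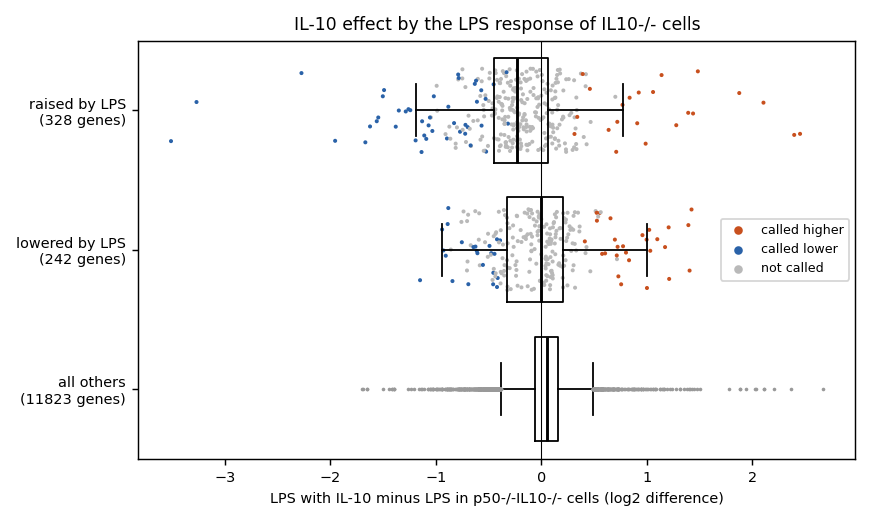
Log2 difference between LPS with IL-10 and LPS in p50-/-IL10-/- cells (horizontal axis), for genes raised or lowered at least 2-fold by LPS in IL10-/- cells and for all others. Boxes span the quartiles with the median as a thick line, whiskers reach 1.5 times that span, and points are genes (for all others, those beyond the whiskers). The median of the raised genes, -0.23, lies left of the other medians.

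Most of the genes changed by IL-10 without p50 had a difference of the same sign in IL10-/- cells, on other arrays, though the error of both comparisons comes from the same fit. IL-10 changed 765 genes there (6.17% of those tested). Of the 458 higher genes, 189 were also called higher there (41.3% of the 458 and 45.5% of the 415 called higher in IL10-/- cells, where 3.35% of all genes were). The sign was the same in 90.0% of them, where 53.2% of all genes had a positive difference. Of the 356 lower genes, 143 were also called lower (40.2% of the 356 and 40.9% of 350, where 2.82% of all genes were), and 88.8% had the same sign, where 46.8% of all genes were negative. Opposite calls were made for 3 genes. The scaffold gene Mapkbp1 differed by 0.67 ± 0.12 in p50-/-IL10-/- and -0.50 ± 0.12 in IL10-/- cells. For the sorting nexin Snx20 these differences were 0.34 ± 0.08 and -0.39 ± 0.08, and for the transcription factor Nfatc1 -0.51 ± 0.07 and 0.31 ± 0.07. For Mapkbp1 the difference in p50-/-IL10-/- cells was 0.60 to 0.75 in the 4 fits without 1 array. That call, and the call of its genotype difference, ended in some fits without 1 array. Mapkbp1 has a further probe set, which is not described here. The genotype difference of Snx20 was not called (limma, adjusted p 0.0534), and its call without p50 was lost with arrays centred (adjusted p 0.0866). The other probe set of Nfatc1 fell without p50 (-0.58 ± 0.11) but was not called in IL10-/- cells (0.13 ± 0.11). Its genotype difference was not called either (adjusted p 0.172).

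A direct test of the genotype difference in the IL-10 effect called 17 genes (0.137% of those tested). The effect was more positive in p50-/-IL10-/- cells for 12 (0.0968%) and more negative for 5 (0.0403%). With 1 array left out, the number fell to 4 and 5 when it was array 1 or 2 of LPS with IL-10 in p50-/-IL10-/- cells. It was 11 and 14 for the LPS arrays of that genotype. For IL10-/- cells it was 14 and 11 when array 1 or 2 of LPS with IL-10 was left out, and 10 and 43 for the LPS arrays. With the replicate number as a block within genotypes it was 74, 53 more positive and 21 more negative. Same-numbered arrays deviated together in IL10-/- cells (correlations of 0.40 to 0.59 over genes) but not in all pairs of p50-/-IL10-/- groups (-0.49 to 0.28). Il15 (gene ID 16168), a cytokine that sustains NK and memory T cells, read 11.19 and 11.24 log2 with IL-10, against 12.00 and 11.97 without it, in p50-/-IL10-/- cells. In IL10-/- cells it read 8.25 and 8.46, against 11.19 and 10.90. Its effect was -0.77 ± 0.12 without p50 and -2.69 ± 0.12 with p50, a difference of 1.92 ± 0.17 (adjusted p 0.00295). Gpr146, an orphan receptor, read 7.39 and 7.35, against 7.28 and 7.36 in p50-/-IL10-/- cells. In IL10-/- cells it read 8.34 and 8.27, against 7.23 and 7.26 (difference -1.01 ± 0.10). Its other, dimmer probe set differed by 0.30 ± 0.14 without p50 and by 0.92 ± 0.14 in IL10-/- cells. By that probe set the genotype difference was not called (-0.62 ± 0.19, adjusted p 0.326). Irf1 (gene ID 16362), a transcription factor of interferon responses, read 12.69 and 12.73, against 12.96 and 13.00 in p50-/-IL10-/- cells, and 11.18 and 11.25, against 12.55 and 12.53 in IL10-/- cells (difference 1.06 ± 0.10). The effects of these 3 genes and of the dim Serpinb2, an inhibitor of plasminogen activators (-1.20 ± 0.11), were called different in all 8 fits without 1 array.

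The cell cycle inhibitor Cdkn1a read 13.18 and 13.18 with IL-10, against 13.30 and 13.28 in p50-/-IL10-/- cells, and 11.71 and 11.65, against 13.03 and 13.03 in IL10-/- cells. Its difference of 1.24 ± 0.14 was called in 6 of 8 fits (adjusted p up to 0.0705, when array 1 of LPS with IL-10 in p50-/-IL10-/- cells was left out). Saa1 had the larger increase without p50 (2.11 ± 0.10, against 0.91 ± 0.10 in IL10-/- cells), as had Ptgs2 (1.88 ± 0.18, against -0.20 ± 0.18) and Smad6 (0.96 ± 0.09, against 0.12 ± 0.09). Their differences were called in 6, 4 and 1 of 8 fits, with an adjusted p of up to 0.0689 and 0.0845 for Saa1 and Ptgs2 when array 1 of LPS with IL-10 in p50-/-IL10-/- cells was left out, and 0.26 for Smad6 when array 2 was. Steap4, a metal reductase, differed by 0.40 ± 0.12 without p50, which was not called, against 1.82 ± 0.12 in IL10-/- cells (difference called in 5 of 8). Its other probe set rose by 2.33 ± 0.28 without p50 and by 4.16 ± 0.28 in IL10-/- cells. That genotype difference was not called (-1.83 ± 0.40, adjusted p 0.168). By the other probe set of Ptgs2 the genotype difference was smaller and not called (1.00 ± 0.33, adjusted p 0.349). By the other probe sets of Saa1 (2.17 ± 0.12, adjusted p 9.44e-05) and Cdkn1a (1.76 ± 0.18, adjusted p 0.00388) it was called. For Il12b the difference was 1.25 ± 0.30 and not called (adjusted p 0.207), while its other probe set fell by 2.60 ± 0.10 in p50-/-IL10-/- and by 4.37 ± 0.10 in IL10-/- cells, a difference called with p adjusted over all probe sets (1.78 ± 0.14, adjusted p 0.0019). For Il6 (0.76 ± 0.46), Tnf (0.83 ± 0.16, adjusted p 0.102), Socs3 (0.68 ± 0.12, adjusted p 0.0675), Mt2 (-0.07) and Il4ra (-0.04) the difference was not called.

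**Figure D5:**
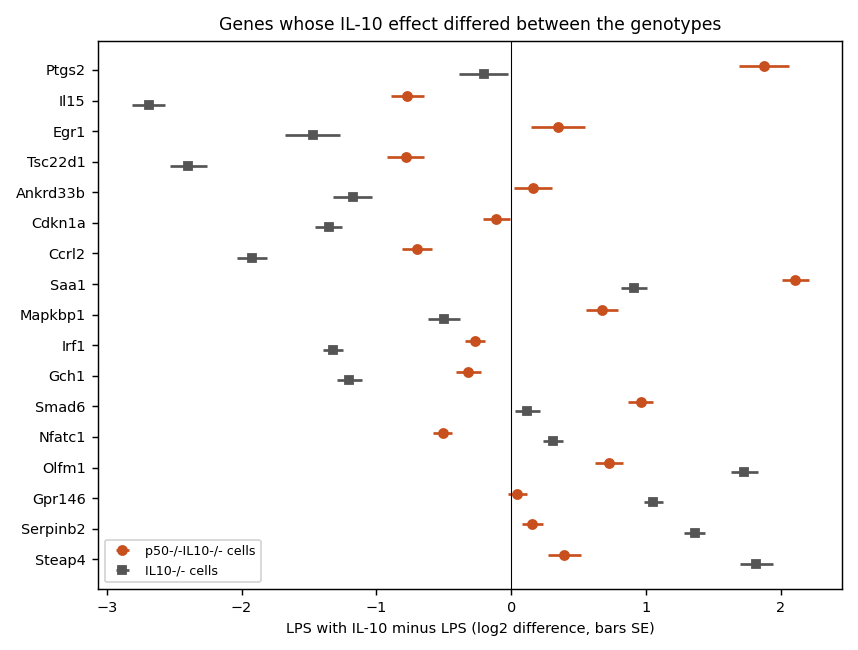
IL-10 effect, as the log2 difference between LPS with IL-10 and LPS, in p50-/-IL10-/- cells (orange circles) and IL10-/- cells (grey squares) for the 17 genes whose effect differed between the genotypes. Bars are SE from the fit over all 12 arrays, with 2 arrays per group, so for a gene they have the same length in both genotypes. Il15, Tsc22d1 and Ccrl2 fell in both genotypes with the smaller fall in p50-/-IL10-/- cells, and the effect of Gpr146 in those cells is near 0.

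A promoter of Irf1, 1 of 2 listed for the gene, is shown for holding both the STAT letters, at positions -90 to -82, and the NF-kB consensus, at -13 to -4, each in capitals (RefSeq, GRCm38.p6, chr11:53769764-53770013, plus strand).
Irf1: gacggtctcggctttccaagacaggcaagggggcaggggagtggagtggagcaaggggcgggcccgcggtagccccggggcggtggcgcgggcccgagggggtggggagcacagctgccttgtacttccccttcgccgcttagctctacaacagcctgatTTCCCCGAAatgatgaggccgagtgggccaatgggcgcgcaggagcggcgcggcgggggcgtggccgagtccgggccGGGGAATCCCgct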

How the data were processed

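The authors deposited log2 values of 22690 probe sets on 12 arrays. Per the submitters' processing notes RMA and limma were used. Their versions and the genome build are not given in the sources here. RMA equalises the distributions of the arrays, which hides any difference in total RNA, and it compresses changes of dim genes. The 64 control probe sets, 691 with several gene symbols and 1555 with none were left out. Of the rest, 20351 matched the mouse gene table by identifier. Where a gene had several probe sets, the one of highest mean level over all arrays stood for it, which left 12393 genes. Nfkb1 was not analysed here. The small number of arrays limits the precision.

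From these values limma 3.58.1 in R 4.3.3 fitted a mean per group over all 12 arrays, leaving 6 residual degrees of freedom, to which the variance prior added 4.47. Genes with a two-sided p under 0.05 after Benjamini-Hochberg adjustment over all genes are referred to as called. The median SE of a difference was 0.0998 log2. With 2 arrays a side, 0.333 is the smallest two-sided p of an exact permutation test. The fit was tested on simulated data.

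The members and the 28 gene lists were chosen with earlier results of these data known. Genes named were the 15 largest called changes each way with separate arrays, up to 5 called members of each list, the IL-10 pathway and NF-kB subunits, Il10, the 6 smallest p each way in the genotype difference, and up to 10 each way among LPS-responsive genes. List members not called are named with values only, and other names (opposite calls, probe sets, the remaining genotype differences, called list members beyond 5, motif promoters) were chosen after their values were seen. Promoters came from a RefSeq table of windows reaching 250 bases upstream. Alternatives were the arrays entering the fit, scaling, probe set choice, a level filter, the variance prior, a replicate block and leaving out each array.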

Additional observations from a re-analysis of the deposited data

Results flagged for a closer look

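The effect of IL-10 added to LPS differed between p50-/-IL10-/- and IL10-/- cells for 17 genes (limma, adjusted p under 0.05 for the difference of the effects). The values below are the effect in p50-/-IL10-/- cells minus that in IL10-/- cells, in log2. It was positive for Ptgs2 (2.08), Il15 (1.92), the growth factor response gene Egr1 (1.82), the leucine zipper gene Tsc22d1 (1.61), Ankrd33b (1.34), Cdkn1a (1.24), the chemerin receptor-like gene Ccrl2 (1.22), Saa1 (1.20), Mapkbp1 (1.17), Irf1 (1.06), Gch1, which starts tetrahydrobiopterin synthesis (0.88), and Smad6 (0.84). It was negative for Steap4 (-1.42), Serpinb2 (-1.20), Gpr146 (-1.01), the secreted protein gene Olfm1 (-1.003) and Nfatc1 (-0.82).

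Il15, Serpinb2, Gpr146 and Irf1 kept this call in all 8 fits with 1 array left out, and Ankrd33b, dim in p50-/-IL10-/- cells, in 0. Egr1, Olfm1 and Smad6 kept it in 1. Tsc22d1 read 10.79 and 10.77 log2 with IL-10, against 11.59 and 11.53 without it, in p50-/-IL10-/- cells, and 8.45 and 8.86, against 10.98 and 11.13, in IL10-/- cells. Of its 5 other probe sets, 2 were also lower without p50 (-0.98 and -0.89) and 3 were not called (-0.18 to 0.20). With 1 array left out, the difference without p50 was -0.82 to -0.75 for Tsc22d1 and -0.78 to -0.62 for Ccrl2. For both genes the call of this fall, and that of the genotype difference, ended in some fits without 1 array. By their other probe set the genotype differences of Ptgs2, Gpr146, Nfatc1 and Steap4 were not called, with p adjusted over all probe sets. For Tsc22d1 it was called by the other probe set with a difference of 1.66 ± 0.24, but not by the rest (0.004 to 1.42). For Olfm1 it was called by the other probe set with a difference of -1.77 ± 0.23, but not by the remaining one (-0.69 ± 0.17).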

How the results depend on the processing

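For the IL-10 effect without p50, the number of genes called (814) stayed within 1.5 times in the 7 alternatives other than leaving out an array, from 613 on the compared arrays only to 1079 over all probe sets, and lay between 270 and 479 with 1 array left out. In IL10-/- cells it was 283 on the compared arrays only, against 765 in the fit over all arrays, and 426 to 1082 with 1 array left out. The genotype difference (17) became 10 on the compared arrays only, 10 for genes above the median level, 26 with means over probe sets, 29 over all probe sets and 4 to 43 with 1 array left out. The LPS response in IL10-/- cells (3078) became 1914 on the compared arrays only and 1950 to 3551 with 1 array left out. Centred arrays gave 1512 higher and 1492 lower genes for it, where the uncentred values gave 962 and 2116. The cause of these shifts was not tested. No named gene that was called changed direction in the fits per gene. Of those not called, Stat6 (-0.046), Ptpn11 (-0.039) and Gpr146 (-0.014) turned negative with arrays centred, and Pias1 (-0.067), Ptpn11 (-0.038) and Il6st (-0.14) with means over probe sets. Pias1, Pias3 and Ptpn11 turned negative with 1 array left out, where the ranges were -0.10 to 0.35, -0.067 to 0.23 and -0.027 to 0.068.

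With the replicate number as a block within genotypes, 954 genes were called for the IL-10 effect without p50, 950 in IL10-/- cells, 74 for the genotype difference and 3366 for the LPS response. Deviations of same-numbered arrays of p50-/-IL10-/- cells correlated at -0.49 between LPS and LPS with IL-10. They correlated at -0.34 between no stimulus and LPS with IL-10, and at 0.28 between no stimulus and LPS. In IL10-/- cells these correlations were 0.59, 0.59 and 0.40. The labels tie no animal or culture to a number, and with 2 numbers a group the pairing is not settled in either genotype. Of 140 named genes, 119 were called, and 64 of them kept their call in all 4 fits without 1 array. Other probe sets of 58 called named genes numbered 118, of which 68 had the same call, 50 were not called and 0 had the opposite call. The sign was opposite in 7, of Acvr1, Il10ra, Ivns1abp, Spry2, Tsc22d1 and Zdhhc14.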
